A study of Mus musculus with 9 samples.

Results

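The genes described here direct the fate and migration of interneurons that arise in the ganglionic eminences, the ventral swellings of the embryonic forebrain. They are Nkx2-1, Lhx6, Lhx8, Sox6, Satb1, Maf, Zeb2, Cxcr4, Erbb4 and Nxph1, 10 of the 19938 genes measured. They were selected on the log2 values of these same arrays, with their differences between the genotypes known, and were then found by gene symbol, each represented by its probe set of highest mean. All 10 were measured, and none was removed by a filter on low values, since none was applied. Their values are therefore a description. The p-values below come from a fit over all genes and only place each gene among them.

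RNA of uncultured ventricular zone cells, dissected from brains of newborn C57BL/Ka mice without any treatment, was measured on 9 Affymetrix Mouse Gene ST 1.0 arrays. The groups were Prdm16LacZ/LacZ (KO, 0 wild-type alleles), Prdm16LacZ/+ (HET, 1 wild-type allele) and Prdm16+/+ (WT, 2 wild-type alleles), with 3 arrays each. Prdm16 encodes a zinc finger transcription regulator. The labels describe the LacZ allele no further and give neither sex nor the number of animals behind an array. Whether the 3 arrays per genotype stand for 3 different mice is not stated, so the p-values measure the spread between arrays, which may be technical.

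In the medial ganglionic eminence the homeodomain factor NKX2-1 switches on Lhx6, and LHX6 in turn is needed for Sox6 and Satb1, which carry young interneurons towards the somatostatin and parvalbumin types. LHX8 shares this origin and favours cholinergic neurons of the basal forebrain, while ZEB2 turns Nkx2-1 off in the cells that leave for the cortex. Migrating cells read the chemokine CXCL12 through CXCR4 and neuregulins through ERBB4, and they secrete NXPH1, a ligand of alpha-neurexins.

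Promoter sequence is shown for the 3 genes with the largest differences between KO and WT, to show whether letters of the NKX2-1 site lie near their starts. Each line holds the 250 bases before an annotated start, 5′ to 3′, from RefSeq on build GRCm38.p6, and capitals mark TCAAG or its reverse complement CTTGA, the letters around the CAAG core that NKX2-1 is known to bind.
Lhx6 start 1, chr2:36105409-36105658, minus strand: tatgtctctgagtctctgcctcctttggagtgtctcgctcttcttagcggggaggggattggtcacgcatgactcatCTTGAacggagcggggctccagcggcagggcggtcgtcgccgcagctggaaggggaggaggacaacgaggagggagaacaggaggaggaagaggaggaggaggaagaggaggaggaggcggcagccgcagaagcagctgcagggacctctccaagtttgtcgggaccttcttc
Lhx6 start 2, chr2:36104534-36104783, minus strand: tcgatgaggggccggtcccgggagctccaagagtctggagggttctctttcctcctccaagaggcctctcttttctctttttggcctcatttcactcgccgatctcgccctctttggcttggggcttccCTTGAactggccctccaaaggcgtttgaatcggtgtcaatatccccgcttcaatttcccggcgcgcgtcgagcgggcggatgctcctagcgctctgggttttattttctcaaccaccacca
Lhx6 start 3, chr2:36104061-36104310, minus strand: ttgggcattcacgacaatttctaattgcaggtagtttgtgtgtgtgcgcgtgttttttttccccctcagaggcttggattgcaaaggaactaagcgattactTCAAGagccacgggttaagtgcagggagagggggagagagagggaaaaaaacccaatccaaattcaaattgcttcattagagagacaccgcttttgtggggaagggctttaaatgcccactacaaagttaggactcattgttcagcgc
Nxph1, chr6:8949769-8950018, plus strand: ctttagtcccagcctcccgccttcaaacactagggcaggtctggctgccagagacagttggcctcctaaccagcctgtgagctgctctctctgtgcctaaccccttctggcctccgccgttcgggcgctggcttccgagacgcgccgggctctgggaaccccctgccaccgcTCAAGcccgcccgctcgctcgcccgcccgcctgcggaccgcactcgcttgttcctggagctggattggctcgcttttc
Erbb4, chr1:69108060-69108309, minus strand: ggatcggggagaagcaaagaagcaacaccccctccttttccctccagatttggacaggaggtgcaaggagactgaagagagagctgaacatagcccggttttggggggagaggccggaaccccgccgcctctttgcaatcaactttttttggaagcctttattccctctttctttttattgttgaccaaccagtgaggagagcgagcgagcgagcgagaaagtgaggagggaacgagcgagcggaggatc

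The match lay 173, 121 and 148 bases before the 3 Lhx6 starts and 78 bases before the Nxph1 start, and the Erbb4 window held none. Of the 10 genes, 9 had a window in the table, and 5 of these, Nkx2-1, Lhx6, Sox6, Zeb2 and Nxph1, had at least 1 match, where 39.3% of the 27025 genes with a window did. Over all 32851 windows, 35.9% held it, against 11 of the 23 windows of these genes, and genes with several starts have more chances of a match. A pair of the Zeb2 windows overlap and share 1 match, which is counted in both, and a pair of the Satb1 windows overlap without a match. TAATTA, a core that LIM homeodomain factors such as LHX6 and LHX8 bind, was in 0 of the 23 windows and in 4.84% of all. CACCTG, the E-box that ZEB2 binds, or its reverse complement CAGGTG, was in 3 of the 23, in Nkx2-1, Sox6 and Satb1, and in 17.2% of all. Both strands were searched, the letters of the 3 motifs do not allow one to overlap another, and a match is a description of letters only.

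Prdm16 itself was lower in KO, at 5.69, 6.41 and 6.17, than in HET, at 6.995, 7.34 and 6.998, and in WT, at 7.62, 7.57 and 7.23, on the log2 scale that all levels here use. It fell by 1.38 in KO against WT (SE 0.18, limma adjusted p = 0.010), a call lost without WT replicate 1 (adjusted p = 0.076), without WT replicate 2 (0.069) and when HET arrays were left out of the fit (0.080). In KO against HET the change of Prdm16 was -1.02 (SE 0.18, limma adjusted p = 0.078), which did not pass and was called in 2 of 20 settings. In HET against WT it was -0.36 (SE 0.18, adjusted p = 0.99), called in 0 settings. The place of the Prdm16 probes relative to LacZ is not known here. Pairs of arrays had an r over all probe sets of 0.989 to 0.996 within a genotype and of 0.988 to 0.995 across genotypes. The median of an array was 5.80 to 5.92 and its lower quartile 4.53 to 4.68. KO replicate 2 and HET replicate 1 stood somewhat apart: they received the lowest array weights, 0.364 and 0.547, and their deviations from their group means correlated across genes at 0.31. The mean level of 12 radial glia markers lay between 8.45 and 8.65 in KO, 8.41 and 8.68 in HET, and 8.56 and 8.75 in WT arrays. No other tissue was measured beside them, so these levels describe the arrays and do not test the identity of the tissue. In KO against WT, 5 of the 12 lay higher and 7 lower. Every KO array lay below every WT array in 2, against 4.34% of all genes, and above in 0, against 5.63%.

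Most of the interneuron genes had a higher mean in KO than in WT, with the largest differences in Nxph1, Erbb4 and Lhx6. The difference of means was positive for 9 of the 10 and for 52.6% of all genes, with a median of 0.41 log2 units, where all genes had a median of 0.01. In 7 of the 10, Lhx6, Lhx8, Sox6, Maf, Cxcr4, Erbb4 and Nxph1, every KO array lay above every WT array, and over all genes 5.63% did so. The reverse held for 0 of the 10 and for 4.34% of all genes. By role, this was 4 of the 7 fate regulators and all 3 of Cxcr4, Erbb4 and Nxph1. None of the 10 passed an adjusted p under 0.05 by limma with Benjamini-Hochberg over all genes, where 0.451% of genes were called, nor an adjusted p under 0.10, which 0.627% passed. At an unadjusted p under 0.05 there were 6 of the 10, all higher in KO, against 6.15% of all genes in either direction and 3.28% higher in KO. The genes were chosen with this contrast known, so nothing is read from these counts. These arrays hold bulk RNA, in which more cells of a type and more RNA per cell cannot be told apart.

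**Figure D1:**
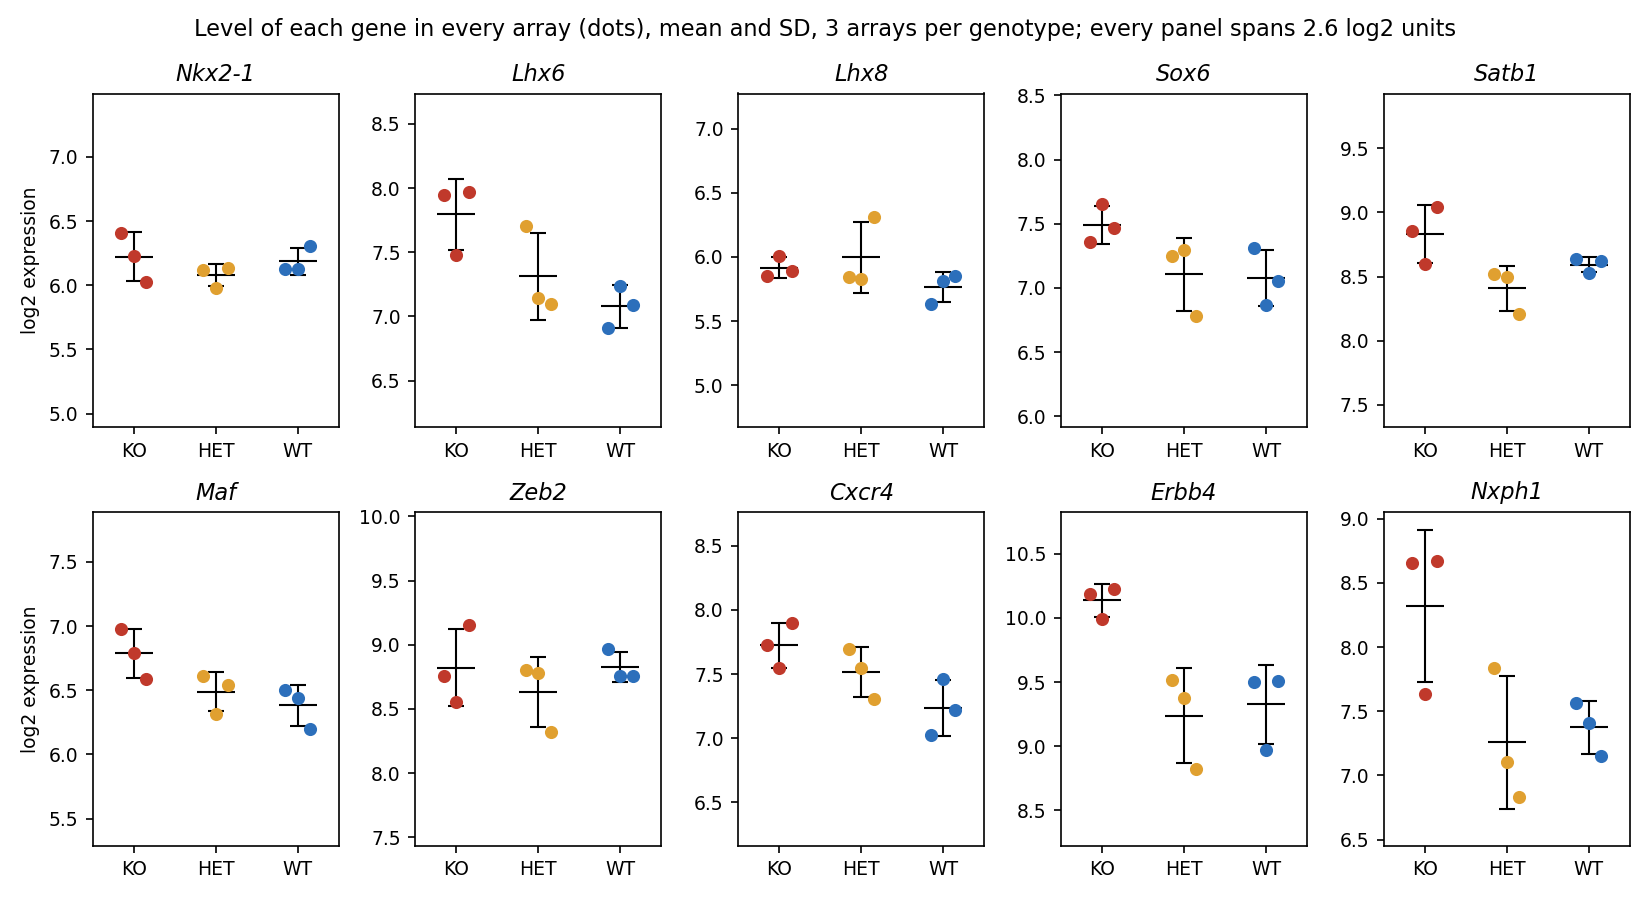
Log2 expression of the 10 genes in each array (dots; x axis, genotype KO, HET and WT), with the mean and SD of 3 arrays as bars. The 3 KO dots of Erbb4 lie between 9.99 and 10.23, above all 6 others, while the groups of Nkx2-1 and Zeb2 overlap.

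Of the migration genes, Erbb4, the neuregulin receptor, had the smallest adjusted p. Its level was 10.19, 9.99 and 10.23 in KO, 9.52, 9.38 and 8.82 in HET, and 9.50, 8.97 and 9.51 in WT arrays. All KO arrays were above all others, and HET and WT arrays overlapped. The difference was 1.75-fold for KO against WT (log2 0.81, SE 0.19, limma adjusted p = 0.17) and 1.86-fold for KO against HET (log2 0.90, SE 0.19, adjusted p = 0.18), so neither passed.

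Nxph1, the secreted neurexin ligand, had the largest difference of means and the widest spread. It measured 8.65, 7.63 and 8.67 in KO, 7.84, 7.11 and 6.83 in HET, and 7.56, 7.41 and 7.15 in WT arrays. KO replicate 2 lay well below the other KO arrays, just above the highest WT array and below HET replicate 1. The log2 difference of KO against WT was 0.94 (SE 0.30, limma adjusted p = 0.49), and that of KO against HET was 1.06 (SE 0.30, adjusted p = 0.43). Nxph1 was the 1 gene of the set with a second probe set. That one read 8.02, 7.78 and 8.46 in KO, 7.61, 7.17 and 7.12 in HET, and 7.30, 7.22 and 6.86 in WT arrays, a log2 difference of 0.96 for KO against WT. There every KO array lay above every HET array as well. In a fit that took the lowest-mean probe set of every gene, the limma adjusted p of Nxph1 was 0.079 for KO against WT. For KO against HET it was 0.30. In HET against WT the 2 probe sets pointed opposite ways, at -0.11 and 0.17.

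Cxcr4, the CXCL12 receptor, had its highest mean in KO and its lowest in WT, with HET between them. It measured 7.73, 7.55 and 7.90 in KO, 7.70, 7.55 and 7.31 in HET, and 7.03, 7.46 and 7.22 in WT arrays. The KO and WT arrays did not overlap, while HET overlapped with both, and KO replicate 2 and HET replicate 2 carry the same deposited value. The log2 difference was 0.49 for KO against WT (SE 0.14, limma adjusted p = 0.37), 0.21 for KO against HET and 0.28 for HET against WT (SE 0.14 each). The difference of KO against HET was 0.10 without HET replicate 3 and 0.12 without KO replicate 3, and that of HET against WT was 0.17 without WT replicate 1.

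Among the fate regulators, Lhx6 differed most between KO and WT. Its level was 7.94, 7.48 and 7.97 in KO, 7.70, 7.14 and 7.09 in HET, and 6.91, 7.24 and 7.09 in WT arrays. KO lay above WT without overlap, but HET replicate 1 lay above KO replicate 2, so KO and HET overlapped, as did HET and WT. The difference was 1.64-fold for KO against WT (log2 0.72, SE 0.18, limma adjusted p = 0.22) and 1.40-fold for KO against HET (log2 0.48, SE 0.18, adjusted p = 0.70). The call changed with how the 2 arrays of low weight were treated: Lhx6 passed with array weights (log2 0.81, SE 0.14, adjusted p = 0.030) and when both KO replicate 2 and HET replicate 1 were left out (log2 0.88, SE 0.10, adjusted p = 0.027). Nxph1 passed in the second of these settings (log2 1.29, SE 0.13, adjusted p = 0.020) and lay at 0.052 in the first. Leaving out KO replicate 2 or HET replicate 1 alone did not bring Lhx6 past the threshold (adjusted p = 0.11 and 0.094). In both Lhx6 and Nxph1, KO replicate 2 was the lowest KO array and HET replicate 1 the highest HET array. Leaving both out therefore raises the KO mean and narrows the spread of these genes, and nothing is read from the calls so gained.

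**Figure D2:**
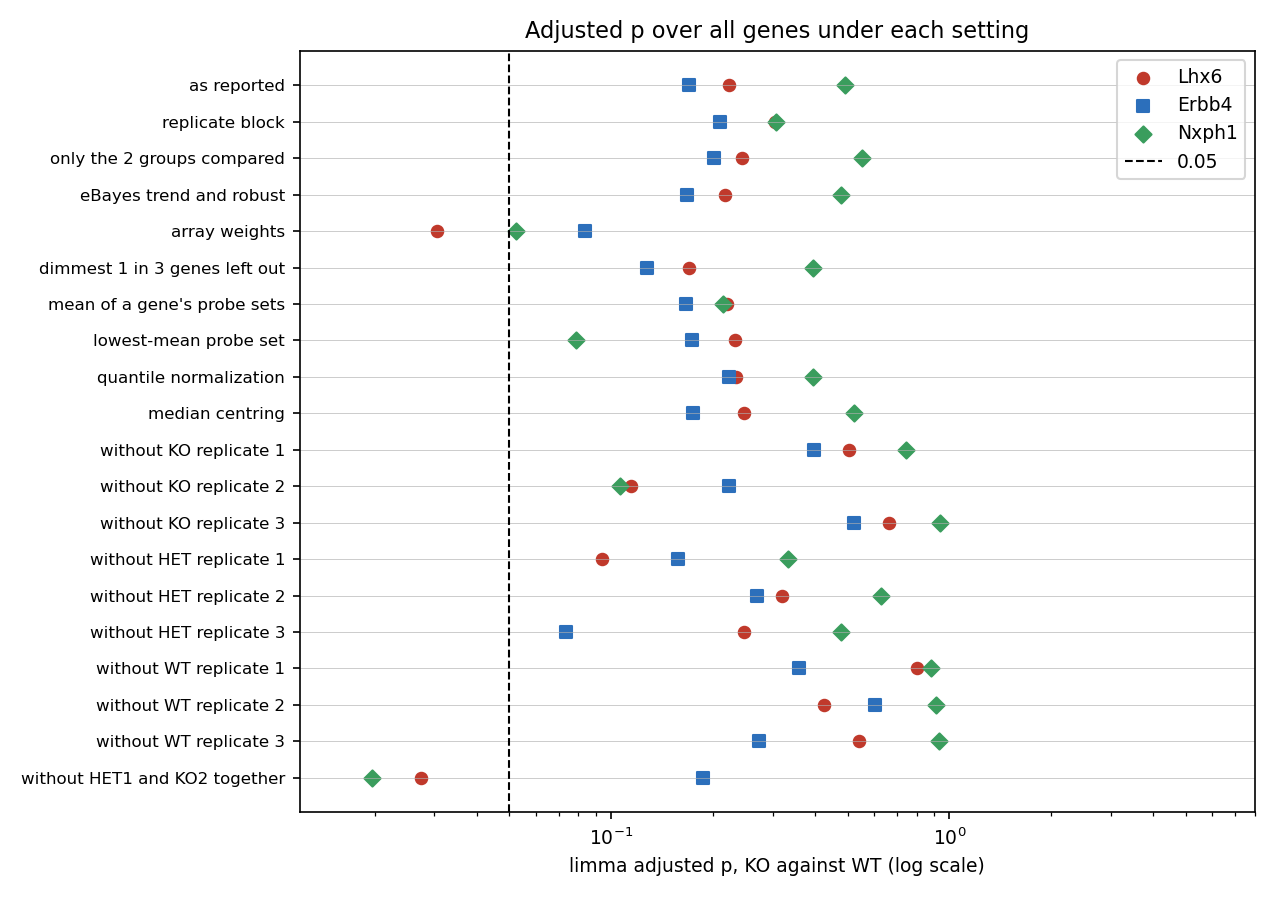
Adjusted p of Lhx6, Erbb4 and Nxph1 in KO against WT (x axis, log scale; dashed line at 0.05) under each processing setting (rows). Lhx6 falls left of the line in 2 rows, at 0.030 and 0.027, Nxph1 in 1, at 0.020, and Erbb4 in none.

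Sox6 and Satb1, which act after Lhx6, had smaller differences. Sox6, an SRY-box factor, measured 7.36, 7.65 and 7.47 in KO, 7.25, 7.30 and 6.78 in HET, and 7.31, 6.87 and 7.06 in WT arrays. Every KO array was above the 6 others, the closest being WT replicate 1, with a log2 difference of 0.42 for KO against WT and 0.39 for KO against HET (SE 0.15 each). Without HET replicate 3 the difference of KO against HET was 0.22. Satb1, a chromatin organiser needed by somatostatin interneurons, measured 8.86, 8.60 and 9.05 in KO, 8.52, 8.49 and 8.21 in HET, and 8.63, 8.53 and 8.62 in WT arrays. HET lay lowest, below every KO and every WT array, though HET replicate 1 (8.523) was only just below WT replicate 2 (8.530). KO replicate 2 lay within the WT arrays. Its log2 difference was 0.24 for KO against WT, 0.43 for KO against HET and -0.19 for HET against WT (SE 0.12 each), and none of these passed. Without KO replicate 3 the difference of KO against WT was 0.13, and without HET replicate 3 that of HET against WT was -0.086.

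Maf, a leucine zipper factor of medial eminence interneurons, measured 6.98, 6.79 and 6.59 in KO, 6.61, 6.32 and 6.54 in HET, and 6.50, 6.44 and 6.20 in WT arrays. KO lay above WT in every array, by 0.40 log2 units on average (SE 0.12, limma adjusted p = 0.44), and HET overlapped with both.

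Nkx2-1 at the top of the cascade, Lhx8 and Zeb2 had the 3 smallest differences between KO and WT. Nkx2-1 measured 6.41, 6.23 and 6.03 in KO, 6.12, 5.98 and 6.13 in HET, and 6.13, 6.13 and 6.31 in WT arrays, with KO minus WT at 0.03 (SE 0.11). Lhx8 measured 5.85, 6.01 and 5.89 in KO, 5.84, 5.83 and 6.31 in HET, and 5.63, 5.81 and 5.85 in WT arrays. Its KO and WT arrays did not overlap by a margin under 0.01, and its highest array was HET replicate 3. Both genes lay near the array medians, where background may make up some of the signal, and no detection call was used. Zeb2 measured 8.76, 8.56 and 9.15 in KO, 8.80, 8.78 and 8.32 in HET, and 8.96, 8.76 and 8.76 in WT arrays, with KO minus WT at -0.01 (SE 0.17), and KO replicate 1, WT replicate 2 and WT replicate 3 carry the same deposited value.

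**Figure D3:**
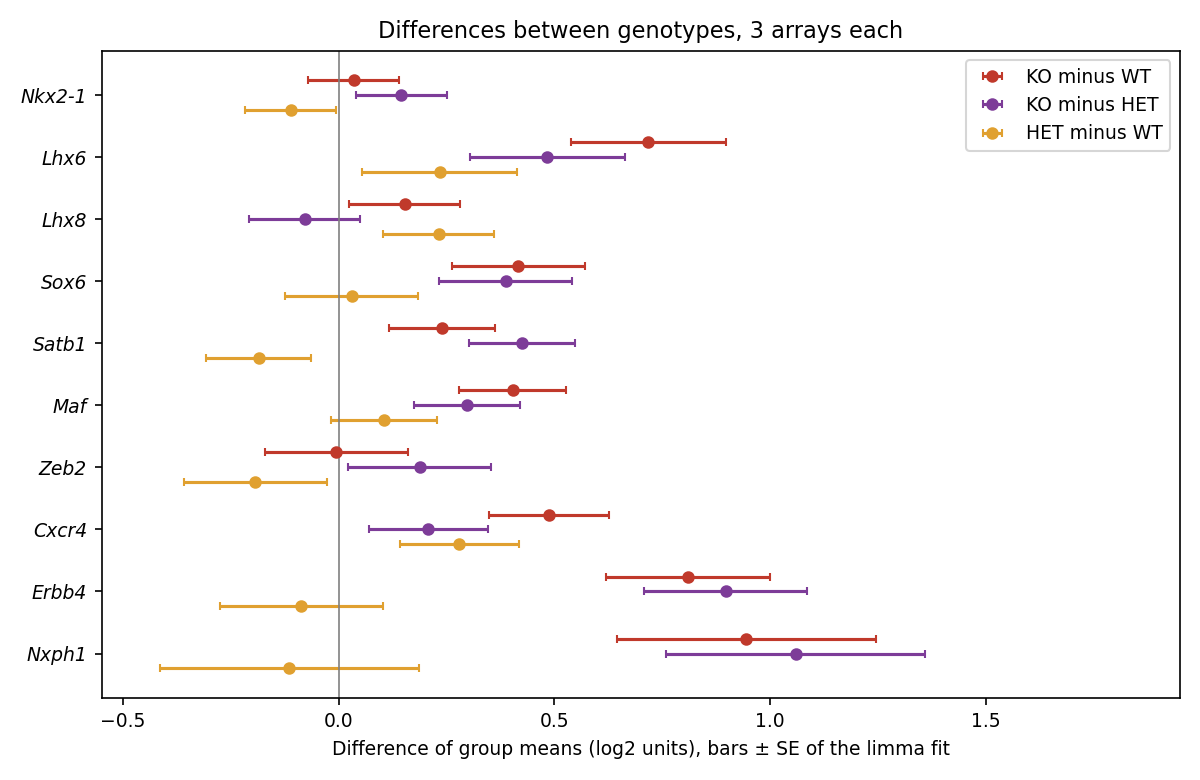
Difference of group means with the SE of the limma fit (x axis, log2 units) for each gene (rows) in KO minus WT, KO minus HET and HET minus WT, 3 arrays per genotype. In KO minus WT, Erbb4 and Nxph1 lie at 0.81 and 0.94, while Nkx2-1 and Zeb2 lie at 0.03 and -0.01.

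The order of the 3 genotypes differed between genes. In 4 genes, Lhx6, Sox6, Maf and Cxcr4, the mean was highest in KO, then HET, then WT. In another 4, Nkx2-1, Satb1, Erbb4 and Nxph1, HET was the lowest. Lhx8 was highest in HET and Zeb2 in WT. The order of HET and WT turned round without 1 array in Sox6, Erbb4 and Nxph1, that of KO and WT in Nkx2-1 and Zeb2, and that of KO and HET in Lhx8. Neighbours in these orders mostly overlapped. KO stood clear of its neighbour in Sox6, Erbb4 and Nxph1. By very narrow margins, KO stood clear of WT in Lhx8 and WT of HET in Satb1.

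In KO against HET, the loss of the remaining allele, 9 of the 10 genes had a positive difference, against 51.0% of all genes, with a median of 0.34 log2 units against 0.00 for all genes. None was called by limma, where 0.206% of all genes were (0.0451% higher and 0.160% lower in KO), and 0 passed an adjusted p under 0.10, against 0.276%. At an unadjusted p under 0.05 there were 6, all higher in KO, against 6.16% of all genes in either direction and 2.87% higher in KO. Every KO array lay above every HET array in 3 genes, Sox6, Satb1 and Erbb4, against 3.45% of all genes, and below it in 0, against 3.09%. In HET against WT, 5 genes lay higher and 5 lower, where 51.5% of all genes lay higher, with a median of -0.03 against 0.00 for all genes. None was called, where 0.00% of all genes were, and 0 had an unadjusted p under 0.05, against 4.05% of all genes in either direction and 2.40% higher in HET. Every HET array lay above every WT array in 0 genes, against 3.75% of all genes. In 1 gene, Satb1, every HET array lay below every WT array, by a very narrow margin, against 3.10% of all genes. KO against WT and HET against WT share the WT arrays, KO against WT and KO against HET share the KO arrays, and a difference between the comparisons was not tested.

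The arrays of a genotype did not behave alike across the set. Relative to each gene's own mean over the 9 arrays, 8 of the 10 genes lay above it in KO replicate 1, 7 in KO replicate 2 and 8 in KO replicate 3, with medians of 0.25, 0.07 and 0.40 log2 units. In HET replicates 1, 2 and 3, 6, 3 and 1 genes lay above, with medians of 0.03, -0.15 and -0.35. In WT replicates 1, 2 and 3, 3, 0 and 2 genes lay above, with medians of -0.06, -0.10 and -0.11. HET replicate 3 was the lowest array for Sox6, Satb1, Zeb2, Erbb4 and Nxph1 and the highest for Lhx8. KO replicate 3 was the highest array for Lhx6, Satb1, Zeb2, Cxcr4, Erbb4 and Nxph1.

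**Figure D4:**
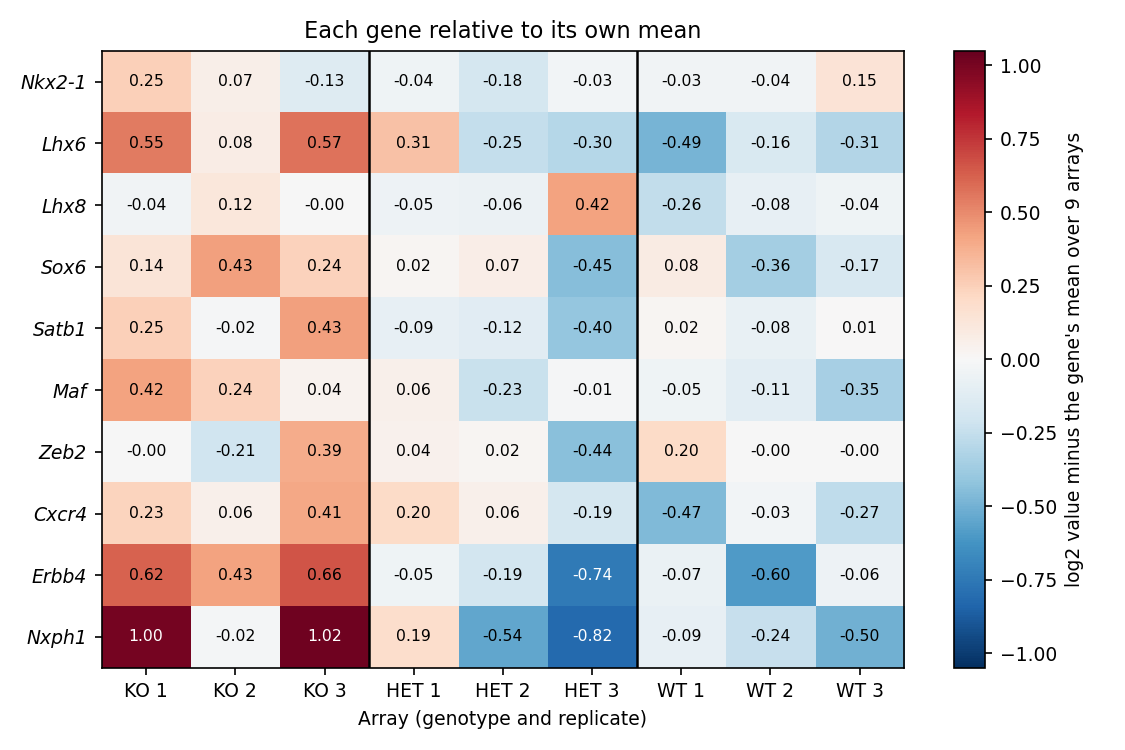
Log2 value minus the gene's mean over the 9 arrays (colour and printed value) for the 10 genes (rows) in each array (columns, KO, HET and WT). KO replicates 1 and 3 reach 1.00 and 1.02 for Nxph1, KO replicate 2 lies at -0.02, and HET replicate 3 falls to -0.82 and -0.74 for Nxph1 and Erbb4.

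The gene whose profile lay closest to that of Lhx6 was Cxcr4. Likeness was the mean absolute difference of the centred log2 values over the 9 arrays, which was 0.14 for Cxcr4, the smallest of 19937 genes, where the median over all was 0.34. Next came Atcay and Nkd2 (0.14 each) and Frmpd3 and Ripor2 (0.15 each). Of the rest of the set, Maf ranked 74 and Satb1 149, while Erbb4 ranked 1050, Nxph1 2015, Nkx2-1 3598, Sox6 3735, Zeb2 5456 and Lhx8 9423. The measure favours genes with a range like that of Lhx6, and Erbb4 and Nxph1 have wider ones. Lhx6, Cxcr4 and the rest of the set were chosen with the values of these arrays known, so nothing is read from their ranks.

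Transcription factors that work before or beside these genes were split evenly. Of 24 measured, 12 lay higher and 12 lower in KO against WT, with a median of 0.00 log2 units. Of these, 1 was called upward and 0 downward, against 0.166% and 0.286% of all genes. This list and those that follow were chosen with earlier results of these data known, so nothing is read from their counts. The called gene was Npas3, a bHLH-PAS factor of interneuron progenitors. It measured 8.51, 8.35 and 8.76 in KO, 8.21, 8.07 and 7.77 in HET, and 7.86, 7.81 and 7.68 in WT arrays, a difference of 1.69-fold (log2 0.76, SE 0.13, limma adjusted p = 0.041). Its call was lost without any 1 KO or WT array or HET replicate 2 (adjusted p between 0.055 and 0.19), with median centring (0.062), with the replicate block (0.094), when both KO replicate 2 and HET replicate 1 were left out (0.051) and when HET arrays were left out of the fit (0.11), and it held in 9 of 20 settings. Sp9, a zinc finger factor of ventral progenitors, lay at 0.26 (SE 0.10), Isl1, a factor of striatal and cholinergic neurons, at -0.58 (SE 0.26) and Olig2, a ventral progenitor factor, at -0.16 (SE 0.094), and none of these 3 passed.

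Ligands and partners of the receptors showed no call in KO against WT, where 0.451% of all genes were called. Of 17 measured, 10 lay higher and 7 lower in KO against WT, with a median of 0.01 log2 units. Ackr3, the second CXCL12 receptor, which sets how much CXCR4 migrating interneurons keep, measured 6.31, 6.14 and 6.63 in KO, 6.18, 6.16 and 6.16 in HET, and 5.92, 5.89 and 5.93 in WT arrays. All KO and HET arrays lay above all WT arrays, and the log2 difference of KO against WT was 0.45 (SE 0.11, limma adjusted p = 0.21). Nrg3, an ERBB4 ligand, lay at 0.54 (SE 0.16, adjusted p = 0.37), Egfr, a receptor of the ERBB family, at 0.29 (SE 0.13) and Hbegf, a ligand of EGFR and ERBB4, at 0.29 (SE 0.13).

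Of 27 other guidance and motility genes, 16 lay higher and 11 lower in KO against WT. Of these, 0 were called upward and 1 downward, against 0.166% and 0.286% of all genes. The called gene was Hgf, a motogen of cortical interneurons. It fell by 2.63 log2 units (SE 0.12, limma adjusted p = 6.4e-06) and was called in all 20 settings run. Ntrk2, the BDNF receptor, lay at -0.74 (SE 0.19, adjusted p = 0.25), Gfra1, the GDNF receptor of migrating interneurons, at -0.43 (SE 0.12, adjusted p = 0.28) and the kinesin Kif21b at 0.32 (SE 0.11).

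Products of maturing interneurons held 2 calls, both neuropeptides. Of 23 measured, 17 lay higher and 6 lower in KO against WT, with a median of 0.05 log2 units. Of these, 2 were called upward and 0 downward, against 0.166% and 0.286% of all genes. Sst, the neuropeptide somatostatin that marks a main class of LHX6 interneurons, measured 9.05, 8.78 and 8.76 in KO, 7.83, 7.79 and 9.04 in HET, and 7.18, 7.35 and 7.45 in WT arrays. HET replicate 3, the lowest array for 5 of the 10 interneuron genes, was near the KO arrays for Sst. Npy, a neuropeptide of many of the same cells, measured 9.40, 8.51 and 8.76 in KO, 8.22, 7.85 and 8.13 in HET, and 7.51, 7.69 and 7.65 in WT arrays. The rises in KO against WT were 1.53 (SE 0.27, limma adjusted p = 0.047) and 1.27 log2 units (SE 0.19, adjusted p = 0.020). Leaving out any single array other than HET replicate 3 ended the Sst call (adjusted p between 0.054 and 0.26), as did median centring (0.052), the replicate block (0.059) and the loss of both KO replicate 2 and HET replicate 1 (0.14), and the call held in 9 of 20 settings. The Npy call was lost without KO replicate 3 (0.085), without any 1 WT array (0.087 to 0.14) and when HET arrays were left out of the fit (0.13). Gad1, which makes GABA, lay at 0.24 (SE 0.086), with every KO array above every WT array, and Chodl, a marker of long-range somatostatin cells, at -0.27 (SE 0.10).

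**Figure D5:**
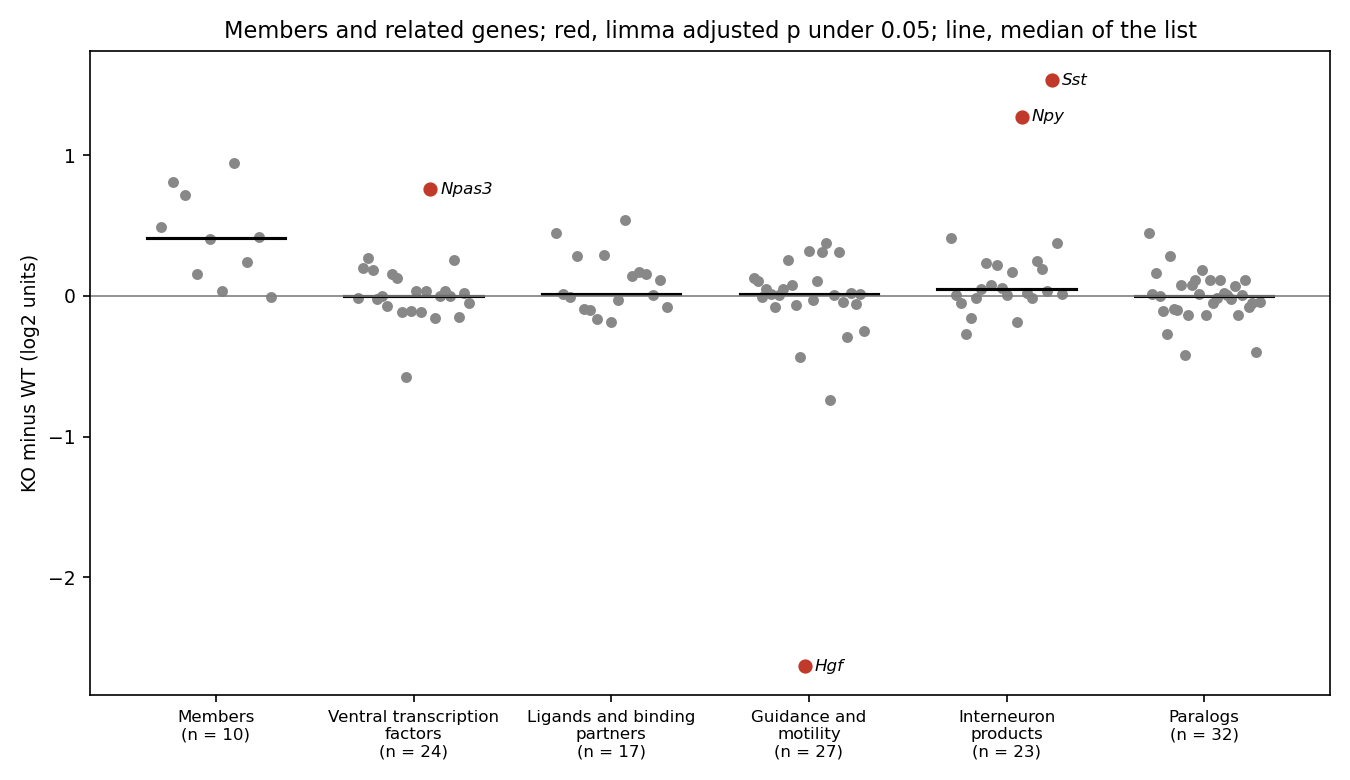
KO minus WT (y axis, log2 units) for every measured gene of the set and of the 5 lists of related genes (columns); red points passed limma's adjusted p under 0.05 and black lines are medians. The median of the set is 0.41, those of the lists lie between 0.00 and 0.05, and Npas3, Sst, Npy and Hgf are the called genes. Some genes are shared between lists.

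The closest relatives of the 10 genes showed no call in KO against WT, where 0.451% of all genes were called. Of 32 paralogs measured, 16 lay higher and 16 lower in KO against WT, with a median of 0.00 log2 units. Some of them, such as Egfr and Ackr3, were also counted among the ligands and partners, and other lists share genes as well. Lhx2, the LIM factor of cortical progenitors, lay at -0.42 (SE 0.12, limma adjusted p = 0.38), with every KO array below every WT array, where Lhx6 lay at 0.72. Sox5 lay at -0.40 (SE 0.14), where its partner Sox6 lay at 0.42. Cxcr6, a chemokine receptor, lay at -0.27 (SE 0.098).

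Several of these genes are also active in other cells, Maf and Cxcr4 in microglia and vessels and Sox6, Zeb2 and Erbb4 in the oligodendrocyte lineage or excitatory neurons, so marker lists were set beside them. Mean levels of the 12 microglia markers lay between 5.93 and 6.07 in KO, 5.97 and 6.02 in HET, and 5.91 and 5.97 in WT arrays. Those of the 12 endothelial and pericyte markers lay between 6.36 and 6.47, 6.27 and 6.41, and 6.34 and 6.41 in KO, HET and WT arrays, in that order. The 9 oligodendrocyte markers lay between 5.64 and 5.75, 5.66 and 5.77, and 5.63 and 5.73 in the same groups, and the 11 cortical excitatory markers between 5.11 and 5.38, 5.09 and 5.32, and 5.30 and 5.33. In each of these lists the mean levels of KO and WT arrays overlapped, and median KO minus WT lay between -0.08 and 0.04 log2 units. In KO against WT 0 of their genes were called, where 0.451% of all genes were. By gene, every KO array lay above every WT array in 2 oligodendrocyte markers and in 0 of the others, against 5.63% of all genes. Every KO array lay below every WT array in 3 cortical excitatory, 1 oligodendrocyte and 1 endothelial or pericyte marker, against 4.34% of all genes. The part of these cell types in the differences above was not tested.

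Markers of neighbouring ventral territories varied more. The 16 markers of the lateral and caudal eminences had mean levels between 7.56 and 7.94 in KO, 7.61 and 8.11 in HET, and 7.59 and 7.66 in WT arrays, with HET replicate 3 the highest, and 0 were called. The 7 cholinergic and septal markers lay between 5.51 and 5.75, 5.60 and 5.68, and 5.60 and 5.74, with 0 called. The defining cholinergic gene Chat averaged 4.38 in KO, 4.36 in HET and 4.50 in WT, below the lower quartile of every array. The remaining lists were Cajal-Retzius cells, choroid plexus, meninges and fibroblasts, and thalamus, midbrain and hindbrain. They had medians between -0.10 and 0.09 log2 units in KO against WT, with 1 call, where 0.451% of all genes were called. The called gene was Ogn of the meninges list, which fell by 1.37 (SE 0.19, limma adjusted p = 0.012). That call was lost without WT replicate 1 (0.087), without WT replicate 2 (0.080), when both KO replicate 2 and HET replicate 1 were left out (0.070) and when HET arrays were left out of the fit (0.12). The 10 meninges markers had mean levels between 5.45 and 5.65 in KO, 5.57 and 5.83 in HET, and 5.73 and 5.78 in WT arrays, so every KO array lay below every WT array, and their part in the differences above was not tested. How much of each territory was dissected was not tested.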

How the data were processed

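The authors deposited log2 expression values for 28940 probe sets on 9 arrays, made, per the submitters' processing notes, with affy, RMA and limma (no versions given). Amplification before hybridization used a NuGEN system, per the labels' protocols. The annotation and genome build used for the values are not given in the sources used here. Arrays give no counts, so their number limits the precision. The 21789 probe sets with 1 gene symbol in the platform annotation were kept, and the 1621 with several symbols and the 5530 it does not list were left out. None of those with several names a member. The one of highest mean was taken for the 999 genes with several, which left 19938 genes, and 10 of the 10 members matched the GRCm38.p6 gene table by gene ID.

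Two-sided tests were run on these log2 values in R 4.3.3 with limma 3.58.1. They used lmFit and eBayes with a mean per genotype over all 9 arrays, adjusted with Benjamini-Hochberg over all genes. The fit was checked on simulated data with independent noise for each gene and array. Deviations that the genes of an array share were not simulated. A call is an adjusted p under 0.05. Tables and figures used Python 3.11.15, pandas 2.3.3 and matplotlib 3.10.9. Members, lists, tests and alternatives were chosen with earlier results of these data known. The rule for names took all members, Prdm16, up to 4 genes of smallest p per related list, every called list gene, and the 5 genes most like Lhx6. Chat, Nr2f2, Nr2f1, Ebf1 and Foxp1 were named outside this rule. Replicate numbers were not used to pair the samples in the reported fit. Same-numbered arrays of different genotypes had deviations correlated between -0.34 and 0.06. Deviations within so few arrays per genotype cannot exclude a pairing. Alternatives were a replicate block, only the compared groups, eBayes trend and robust, array weights, dim genes left out, other probe set rules, median centring, quantile normalization, a threshold of 0.10 and arrays left out.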

Additional observations from a re-analysis of the deposited data

How the results depend on the processing

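Each member was tested under 19 alternatives per comparison. In KO against WT the number of members called was 0 under all of them except array weights, which called 1, Lhx6, and the fit without HET replicate 1 and KO replicate 2 together, which called 2, Lhx6 and Nxph1. In KO against HET that fit called 1, Nxph1 (log2 1.69, limma adjusted p = 0.016), and in HET against WT no setting called a member. The arrays it leaves out are the lowest KO and the highest HET array of Lhx6 and Nxph1, so nothing is read from its calls. An adjusted p under 0.10 also called 0 members. Over all genes, the 90 calls of KO against WT became 33 with only the compared groups, 151 with array weights and between 23 and 77 without 1 array, and the 41 of KO against HET became 8, 31 and between 12 and 75. Median centring gave 67 and 21 calls, the replicate block 72 and 19, and leaving out KO replicate 2 with HET replicate 1 gave 50 and 32. The median of the members stayed between 0.36 and 0.42 in KO against WT and between 0.27 and 0.41 in KO against HET, and lay between -0.09 and 0.09 in HET against WT.

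Of the members, 8 kept their sign in KO against WT, 9 in KO against HET and 7 in HET against WT under every alternative run. Without 1 array, KO minus WT ranged from -0.059 to 0.13 for Nkx2-1 and from -0.17 to 0.13 for Zeb2, which also lay at 0.0093 with median centring and at 0.13 without HET replicate 1 and KO replicate 2. KO minus HET of Lhx8 ranged from -0.16 to 0.081. HET minus WT ranged from -0.075 to 0.19 for Sox6, from -0.27 to 0.12 for Erbb4 and from -0.40 to 0.10 for Nxph1. HET minus WT of Sox6 was also -0.037 with array weights and -0.040 with both KO replicate 2 and HET replicate 1 left out, and that of Nxph1 was 0.029 with the mean of its probe sets and 0.17 with the other probe set. The cause of these shifts was not tested. With the replicate block, Lhx6 had an adjusted p of 0.31, Erbb4 0.21 and Nxph1 0.31 in KO against WT, and the block changed no call of a member. With 3 arrays per genotype and an SE of 0.11 to 0.30 for the members, differences smaller than these errors cannot be told from the spread between arrays. Differences well above their SE also went uncalled in the reported fit, such as Lhx6 in KO against WT at 0.72 (SE 0.18, limma adjusted p = 0.22).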

Other observations

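The 16 markers of the lateral and caudal eminences were divided in KO against WT: 9 lay higher and 7 lower, with a median of 0.04 log2 units. Every KO array lay above every WT array in 3 of them, against 5.63% of all genes, and below in 4, against 4.34%. The list was chosen with earlier results of these data known, so nothing is read from these counts. The 4 genes named here were chosen after their values were seen. Nr2f2 (COUP-TFII), a nuclear receptor that steers caudal migration of interneurons, measured 7.91, 7.28 and 7.73 in KO, 7.26, 6.55 and 6.57 in HET, and 6.20, 6.38 and 6.76 in WT arrays. Every KO array was above the 6 others, a difference of 1.19 log2 units for KO against WT (SE 0.22, limma adjusted p = 0.057), which just missed the threshold. Its relative Nr2f1 measured 7.56, 6.64 and 6.93 in KO, 6.73, 6.58 and 6.48 in HET, and 6.16, 5.99 and 6.39 in WT arrays, with a difference of 0.86 (SE 0.20, adjusted p = 0.17). All KO and HET arrays of Nr2f1 lay above all WT arrays. Ebf1 and Foxp1, 2 of several markers of striatal neurons in the same list, lay at -0.83 (SE 0.35) and -0.38 (SE 0.22). Every KO array lay below every WT array in both, and neither passed. The other striatal markers of the list are not given here, so these 2 do not stand for them.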
